A study of Mus musculus with 12 samples.

Results

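Antigen presentation was followed through 6 genes of the MHC class II pathway (H2-Aa, H2-Ab1, H2-Eb1, H2-DMa, H2-DMb1 and Cd74) and the class I gene H2-K1. A gene was taken when the platform's probe table gave its symbol to a probe. All 7 genes were found, on 8 of 25344 probes, and all 7 were among the 21513 features tested, of which 17882 were named genes. H2-DMb1 had 2 probes and each other gene had 1.

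RNA came from adrenal glands of mice of line #56, labelled YAC, which carry extra copies of Ftz-F1 (Nr5a1, the gene of the steroidogenic nuclear receptor SF-1), and of wild-type littermates. Each transgenic mouse was paired with a littermate of its own sex and age, and 2 arrays were run for every pair, the second with exchanged dyes. The 10-day group held pairs 11, 13 and 15, named by the transgenic mouse, with 1 transgene copy. The 4-month group held pairs 1, 3 and 5, with 2 copies. The female pairs were 15 and 5, and the other 4 were male. Age and copy number change together and cannot be told apart, and a single transgenic line was used.

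Class II molecules are pairs of an alpha and a beta chain that show peptides from endosomes to CD4+ T cells. They are made mainly by dendritic cells, B cells and activated macrophages. Cd74, the invariant chain, escorts new class II molecules and keeps their groove filled, and the H2-DM dimer exchanges that filler for peptide. H2-K1 encodes a class I heavy chain, which nearly all nucleated cells make and which shows peptides from the cytosol, cut by the proteasome and carried by the Tap transporter, to CD8+ T cells. Interferon gamma is a known inducer of both pathways.

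Promoter sequence is shown because class II genes share conserved boxes upstream of their start, which H2-K1 has in another arrangement. The RefSeq promoter table (GRCm38.p6, 250 bases before to 50 after each start) held an entry for 5 of the 7 genes: H2-Aa, H2-Eb1, H2-DMa, H2-DMb1 and H2-K1. The 200 bases before the start are given for 4 of them, 5′ to 3′ on the strand of the gene. They lie at chr17:34287824-34288023 (minus strand) for H2-Aa, chr17:34305667-34305866 (plus strand) for H2-Eb1, chr17:34152991-34153190 (plus strand) for H2-DMb1 and chr17:34000348-34000547 (minus strand) for H2-K1. Capitals mark matches to TGATTGG (the core of the Y box), AACTGATG (a part of the X box), GGGATTCCC (a kappaB site) and TTTCACTT (a part of an interferon-stimulated response element).
H2-Aa: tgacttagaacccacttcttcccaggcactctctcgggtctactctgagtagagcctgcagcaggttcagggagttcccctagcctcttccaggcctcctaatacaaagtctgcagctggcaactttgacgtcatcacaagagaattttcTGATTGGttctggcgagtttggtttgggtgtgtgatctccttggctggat
H2-Eb1: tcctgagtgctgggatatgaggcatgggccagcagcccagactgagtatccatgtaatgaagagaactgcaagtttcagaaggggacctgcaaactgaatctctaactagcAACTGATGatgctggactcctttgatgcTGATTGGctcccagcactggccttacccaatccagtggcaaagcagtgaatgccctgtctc
H2-DMb1: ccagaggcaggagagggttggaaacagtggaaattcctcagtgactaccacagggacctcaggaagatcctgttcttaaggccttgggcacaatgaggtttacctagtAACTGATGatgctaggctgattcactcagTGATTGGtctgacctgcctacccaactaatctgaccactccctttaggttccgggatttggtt
H2-K1: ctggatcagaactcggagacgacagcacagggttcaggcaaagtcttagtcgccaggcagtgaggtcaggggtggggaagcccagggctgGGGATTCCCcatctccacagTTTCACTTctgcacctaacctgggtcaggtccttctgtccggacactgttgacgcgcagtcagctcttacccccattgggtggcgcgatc

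The letters were chosen after these sequences were seen, and both strands were searched. Counted from the start, with negative positions before it, the Y box core lay at -50 to -44 in H2-Aa, -61 to -55 in H2-Eb1 and -63 to -57 in H2-DMb1. H2-Eb1 and H2-DMb1 also held the X box letters, at -89 to -82 and -92 to -85. H2-K1 held the kappaB letters at -110 to -102 and the response element letters at -90 to -83, and the Y box core on the opposite strand just after the start used here. Counted from another listed start of H2-K1, the kappaB letters lay at -124 to -116 and the response element letters at -104 to -97. The Y box core then lay across the start, at -6 to 1. None of the 4 motifs was in the H2-DMa windows. Of all 32851 promoter windows in the table, 7.82% held the Y box core, 0.776% the X box letters, 0.353% the kappaB letters and 1.6% the response element letters. Counted by gene, as the lists below are, the shares of 27025 genes were 9%, 0.907%, 0.414% and 1.91% in the same order. Among other genes of the class II pathway, the Y box core was in 5 of 12 with an entry, including H2-Oa, H2-Ob and Rfx5. Among other class I genes, it was in 9 of 22, with the response element letters in 8 and the kappaB letters in 3 (H2-D1, H2-Q6 and H2-Q7). A match is only a match of letters.

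The values are log2 ratios with the sign as deposited, corrected for the dye trend of each array. A ratio of 0 thus lies on that trend, at the ratio typical of probes of like signal on the array. It need not mean equal signal of the transgenic and the wild-type sample. No source used here states which genotype was the numerator, so a negative sign names no genotype as the lower one. Both arrays of a pair ran the same way. Pair values of different pairs correlated at -0.06 to 0.25 over all features, above 0 for 12 of 15 combinations. Nr5a1, the gene of the transgene, had ratios of -0.57, -0.65 and -0.79 in pairs 11, 13 and 15 and of -0.46, 0.11 and -0.22 in pairs 1, 3 and 5, and passed at neither age (limma adjusted p = 0.327 and 0.568). Extra copies would give a positive ratio of transgenic over wild type if the probe reports the transgene, which was not tested. Nr5a1 was negative in 5 of 6 pairs. Since its probe was untested and it did not pass, its sign was not taken to settle the direction. The ratios themselves give no level, so the presence of a transcript or of a cell type cannot be read from them. A probe signal recovered from them, described with the processing, served only the processing and was not read as a level.

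Some pairs stood apart in marker genes of cells other than adrenal cells. In pair 3 the B cell list (15 genes) had a median of -2.68, the pan-leukocyte list (13) of -2.36 and the T and NK cell list (13) of -1.59. The B cell medians of the other 5 pairs lay from -0.07 to 0.11. Hepatocyte genes had a median of 1.44 in pair 11, with albumin (Alb) at 6.73, and adipocyte genes one of 1.34 in pair 15, with Adipoq at 5.13. Means and list medians at 4 months are therefore also given without pair 3 where it moved them most.

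At 4 months all 7 genes had negative ratios in all 3 pairs, a pattern shared by 17.8% of the 20356 features measured in every pair. H2-Ab1, H2-K1, H2-Aa and H2-Eb1 lay farthest from 0, with means from -1.72 to -0.94. H2-DMb1, Cd74 and H2-DMa lay closer, with means from -0.80 to -0.26. None passed the threshold of 0.05 after adjustment over all features (limma, adjusted p = 0.208 to 0.459), and 0% of features did at 4 months. Before adjustment, 6 of the 7 had p under 0.05 with a negative ratio, against 6.21% of all features.

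The chains of the class II molecules come first. H2-Ab1, the beta chain of the I-A molecule, was at -1.09, -2.83 and -1.25 in pairs 1, 3 and 5, and at -0.48, -0.98 and 0.43 in pairs 11, 13 and 15. Every 4-month pair was thus below every 10-day pair, and pair 3 was lowest. The 4-month mean was -1.72 ± 0.96 (SD, n = 3), a 3.3-fold ratio in size, with limma adjusted p = 0.223 (0.00144 before adjustment). Its 10-day mean was -0.35 ± 0.71 (SD, n = 3; limma adjusted p = 0.846).

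H2-Aa, the alpha chain that pairs with it, was at -0.05, -2.35 and -1.34 in pairs 1, 3 and 5, and at 0.19, 0.35 and -0.14 in the 10-day pairs. Pair 1 was near 0 and above pair 15, so the ages overlapped for this gene only among the 7. The 4-month mean of -1.25 ± 1.15 (SD, n = 3), a 2.37-fold ratio in size, had limma adjusted p = 0.276 (0.00819 before adjustment). The chains of a single molecule therefore gave unlike values in pair 1, where H2-Ab1 was at -1.09 and H2-Aa at -0.05.

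H2-Eb1, the beta chain of the I-E molecule, was at -0.92, -1.47 and -0.43 in pairs 1, 3 and 5 and at -0.19, -0.39 and 0.08 at 10 days. The ages did not overlap, though pairs 5 and 13 were close, at -0.43 and -0.39. Its 4-month mean was -0.94 ± 0.52 (SD, n = 3), a 1.92-fold ratio in size (limma adjusted p = 0.21, 0.00114 before adjustment). Of the class II genes, H2-Eb1 had the smallest unadjusted p at 4 months and H2-Ab1 the largest ratio in size. H2-Ea, the alpha chain gene that partners it, is outside the 7 and had a positive 4-month mean of 0.31 ± 0.12 (SD, n = 3; limma adjusted p = 0.36). It is named here for its role, after its values were seen.

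**Figure D1:**
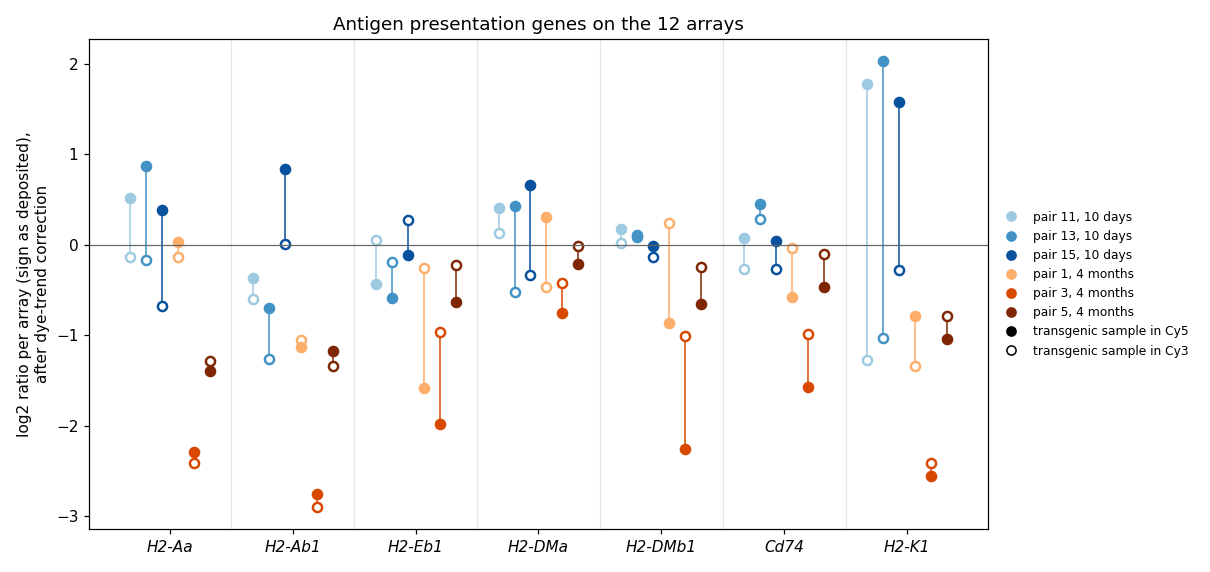
Log2 ratio of each of the 7 genes (horizontal axis) on each of the 12 arrays (vertical axis, sign as deposited, after correction for the dye trend). Colours mark pairs, filled circles the arrays with the transgenic sample in Cy5, open circles those with it in Cy3, and a line joins the 2 arrays of a pair. At 4 months H2-Ab1, H2-Eb1, Cd74 and H2-K1 were below 0 on all 6 arrays, with pair 3 lowest in each, while at 10 days the 2 arrays of a pair lay on opposite sides of 0 for H2-K1 and H2-Aa.

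The peptide loading genes had smaller ratios. H2-DMb1, the beta chain of the peptide exchanger, was at -0.32, -1.63 and -0.45 in pairs 1, 3 and 5 and at 0.09, 0.10 and -0.07 in the 10-day pairs. Its 4-month mean was -0.80 ± 0.72 (SD, n = 3; limma adjusted p = 0.279, 0.00868 before adjustment). Here the ages did not overlap, and pair 3 alone was beyond -1. The 2 probes of H2-DMb1 agreed at 4 months, at -0.32, -1.52 and -0.47 against -0.32, -1.74 and -0.43. They differed in pair 11, at -0.29 and 0.48, and the first was empty on 1 array of pair 15. H2-DMb2, a near-identical neighbour, could contribute to either probe, which these ratios cannot separate.

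H2-DMa, the alpha chain of the exchanger, was nearest to 0 of the 7 genes. It was at -0.08, -0.58 and -0.11 in pairs 1, 3 and 5 and at 0.27, -0.04 and 0.17 in pairs 11, 13 and 15. Pair 3 was low, while pairs 1 and 5 lay close to pair 13. The mean of -0.26 ± 0.28 (SD, n = 3) had limma adjusted p = 0.459 (0.0833 before adjustment), with a 95% interval of -0.56 to 0.04.

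Cd74 lies on chromosome 18, apart from the other 6 genes on chromosome 17. It was at -0.31, -1.28 and -0.28 in pairs 1, 3 and 5 and at -0.10, 0.36 and -0.12 at 10 days. The ages did not overlap, and pairs 1 and 5 were nearly equal. Its 4-month mean was -0.62 ± 0.57 (SD, n = 3), a 1.54-fold ratio in size (limma adjusted p = 0.313, 0.0161 before adjustment).

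H2-K1, the class I heavy chain gene, was at -1.07, -2.48 and -0.92 in pairs 1, 3 and 5 and at 0.25, 0.50 and 0.65 in pairs 11, 13 and 15. It was the only one of the 7 with positive ratios in all 10-day pairs and negative ratios in all 4-month pairs. The 4-month mean was -1.49 ± 0.87 (SD, n = 3), a 2.81-fold ratio in size, with a 95% interval of -2.12 to -0.86 and limma adjusted p = 0.208 (0.000659 before adjustment). The 10-day mean was 0.47 ± 0.20 (SD, n = 3; limma adjusted p = 0.712). Class I heavy chain genes are much alike in sequence, so the probe may also report neighbours such as H2-D1.

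Without pair 3 all 7 genes stayed negative at 4 months in pairs 1 and 5, but their ratios shrank. H2-Ab1 went from -1.72 to -1.17, H2-K1 from -1.49 to -0.99, H2-Aa from -1.25 to -0.70, H2-Eb1 from -0.94 to -0.67, H2-DMb1 from -0.80 to -0.38, Cd74 from -0.62 to -0.30 and H2-DMa from -0.26 to -0.09. In this fit 5 of the 7 had an unadjusted p under 0.05 with a negative ratio, against 4.43% of features, and Cd74 (0.0964 in limma) was no longer among them. H2-K1 had the smallest unadjusted p without pair 3, 0.000183 in limma. The adjusted p-values in limma were 0.504 to 0.843.

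At 10 days the 7 means lay from -0.35 for H2-Ab1 to 0.47 for H2-K1, and none of the 7, like 0% of all features, passed (limma adjusted p = 0.712 to 0.979). The 6 class II genes had a median of 0.05, and their medians were 0.00, 0.03 and 0.00 in pairs 11, 13 and 15. The 10-day values thus lay around 0 except for H2-K1 and H2-Ab1. H2-Ab1 spread most among the 10-day pairs, from -0.98 in pair 13 to 0.43 in pair 15.

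The descriptions give one date to the arrays that carry transgenic RNA in Cy3 and another to those that carry it in Cy5, so dye orientation and that date cannot be told apart. For H2-K1 the orientation mattered at 10 days. With the transgenic sample in Cy3 its arrays were at -1.27, -1.03 and -0.28 in pairs 11, 13 and 15, and with it in Cy5 at 1.78, 2.03 and 1.58. The sign was thus opposite between the 2 arrays of every 10-day pair, with a mean gap of 2.66. H2-Aa showed the same at a smaller gap of 0.93, from -0.68 to -0.14 in Cy3 and from 0.39 to 0.87 in Cy5. Of all features, 12.8% had arrays split by orientation in this way at 10 days, and 0.152% had a gap as large as that of H2-K1.

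At 4 months the orientations gave like values for the genes with the largest ratios. H2-K1 was at -1.34, -2.41 and -0.79 in Cy3 and at -0.79, -2.56 and -1.04 in Cy5 for pairs 1, 3 and 5. The orientation means at 4 months were -1.51 and -1.46 for H2-K1, -1.76 and -1.68 for H2-Ab1 and -1.28 and -1.22 for H2-Aa. H2-Eb1 was less negative in Cy3 than in Cy5, at -0.48 and -1.40, and so were H2-DMb1, at -0.34 and -1.26, and Cd74, at -0.37 and -0.88. H2-Ab1, H2-Eb1, Cd74 and H2-K1 were negative on 6 of 6 arrays, 4 of the 7 genes, against 4.11% of features.

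A fit of the 12 arrays with the orientation as a term and the pair as a random block gave a single correlation of 0.31 between the arrays of a pair for all features. In it, 3 of the 7 genes passed at 4 months with negative ratios, as did 0.699% of features. These were H2-Ab1 (limma adjusted p = 0.00985), H2-Eb1 (0.0192) and H2-Aa (0.0493), while H2-K1 was at 0.0872. The ratios are those of the pair fit, and only the error differs. At 4 months the 2 arrays of a pair lay close for H2-Ab1 and H2-Aa, such as -2.90 and -2.76, and -2.41 and -2.29, in pair 3. A correlation of 0.31 treats such arrays as more independent than they were, so these adjusted p-values may be too small. With 1 value per pair, none of the 3 passed.

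The difference between the ages asks whether the ratios depend on age and copy number together. It was negative for all 7 genes, from -1.96 for H2-K1 to -0.39 for H2-DMa. All 7 had limma adjusted p = 0.933, and 0% of features passed. Before adjustment 6 of the 7 had p under 0.05 with a negative difference, against 2.39% of features. In 6 of the 7, every 4-month pair was below every 10-day pair, against 5.33% of features.

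For H2-K1 the difference of -1.96 (SE 0.39, n = 6 pairs) had a 95% interval of -2.85 to -1.06 and an unadjusted p of 0.00104 in limma. It was -0.65 within the Cy3 orientation and -3.26 within Cy5, so the orientations shared the sign and not the size. H2-Ab1 and H2-Aa both differed by -1.38 (SE 0.51 and 0.50), with -1.15 and -0.95 within Cy3 and -1.61 and -1.82 within Cy5. H2-DMb1 differed by -0.84, H2-Eb1 by -0.77 and Cd74 by -0.68. The sign was negative in both orientations for all 7 genes, and H2-DMa was at only -0.06 in Cy3 against -0.72 in Cy5.

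Over all 6 pairs the means ran from -1.04 for H2-Ab1 to -0.06 for H2-DMa, with limma adjusted p = 0.139 to 0.789, where 0.0558% of features passed. H2-Ab1 was negative in 5 of 6 pairs and H2-Eb1 at -0.55 also in 5 of 6. The mean of H2-K1, -0.51, joins opposite signs of the ages.

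The other genes of the class II pathway were nearer to 0 as a list. Of 17 genes in that list 14 were tested, and their 4-month median was -0.19, against -0.87 for the 6 class II genes above and -0.01 for all features. Of the 14, 11 were negative (8 without pair 3, where the median was -0.15), while 11191 of all 21513 features were negative at 4 months. At an unadjusted p under 0.05, 4 were negative and 2 positive, H2-Ea and Cd86, and none passed adjustment. Ctss, the gene of cathepsin S, which trims the invariant chain, was at -0.38, -2.49 and -1.31 in pairs 1, 3 and 5, with a mean of -1.39 ± 1.06 (SD, n = 3; limma adjusted p = 0.265), or -0.84 without pair 3. It was below 0 in all 3 pairs, as the class II chains were.

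H2-Oa and H2-Ob form H2-DO, an inhibitor of the peptide exchanger found mainly in B cells. H2-Oa was at -0.32, -3.59 and -0.51, and H2-Ob at -4.51 in pair 3 and -0.19 in pair 5, with no value in pair 1. Both were thus low chiefly in pair 3, and without it H2-Oa was at -0.42. Ifi30, a thiol reductase of endosomes, was at 0.46, -2.29 and -0.10, and its mean of -0.64 turned to 0.18 without pair 3. Ciita, the gene of the coactivator that drives class II transcription, is named for its role after its values were seen. It was at -0.09, -0.26 and -0.20 at 4 months and at -0.28, -0.09 and -0.17 at 10 days, with a mean of -0.18 ± 0.09 (SD, n = 3) at each age (limma adjusted p = 0.476 at 4 months and 0.688 at 10 days). Its 4-month ratios were therefore within the range of its 10-day ones, unlike those of any of the 7 genes above.

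Other class I genes had a 4-month median of -0.46 over 23 tested of 29 in the list, with 19 negative, 8 negative and 0 positive at an unadjusted p under 0.05 and none past adjustment. Without pair 3 the median was -0.21, with 18 of 23 negative. Psmb8, a subunit of the immunoproteasome, was at -0.98, -2.14 and -0.51 in pairs 1, 3 and 5. Psmb9, another such subunit, was at -0.44, -1.61 and -0.57. Their means were -1.21 ± 0.84 and -0.87 ± 0.64 (SD, n = 3; limma adjusted p = 0.249 and 0.265), and without pair 3 they were -0.75 and -0.50. H2-D1, another classical class I heavy chain gene, was at -1.01, -1.74 and -0.26 (limma adjusted p = 0.267), with a mean of -0.64 without pair 3. Each of the 3 genes was negative in every 4-month pair and lowest in pair 3.

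H2-Q10, a class I gene expressed chiefly in liver, was at -0.35, -2.28 and -0.09 at 4 months (mean of pairs 1 and 5, -0.22) and at 1.13 in pair 11, where the hepatocyte genes were also high. B2m, the light chain of all class I molecules, is given for its role, chosen after its values were seen. Its ratios were -0.92, -0.56 and -0.38 in pairs 11, 13 and 15 and -0.01, -1.33 and -0.26 in pairs 1, 3 and 5. B2m was thus negative at both ages and did not share the positive 10-day ratios of H2-K1. Its means were -0.62 ± 0.28 and -0.53 ± 0.70 (SD, n = 3; limma adjusted p = 0.536 and 0.418). H2-T23 and H2-T24, other class I genes named after their values were seen, did share the signs of H2-K1. Each was positive in every 10-day pair and negative in every 4-month pair, with 10-day means of 0.23 and 0.13 and 4-month means of -0.56 and -0.18.

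**Figure D2:**
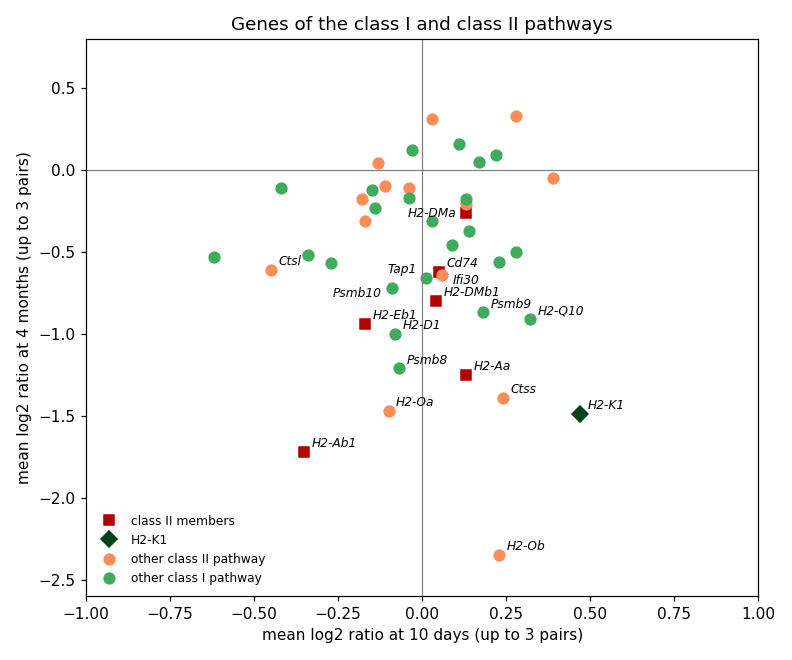
Mean log2 ratio at 4 months (vertical axis) against the mean at 10 days (horizontal axis) for the class II genes (red squares), H2-K1 (dark green diamond) and other genes of the class II (orange) and class I (green) pathways, each a mean of up to 3 pairs. Names are given for the 7 genes and for others whose 4-month mean lies well below 0. H2-K1 is at 0.47 and -1.49. Many other genes are also above 0 at 10 days and below 0 at 4 months, such as H2-Aa, H2-DMa, H2-DMb1, Cd74, Psmb9, Ctss, H2-Ob and H2-Q10. The 10-day mean of Ctss is above 0 through pair 15 (0.93), and that of H2-Q10 mainly through pair 11 (1.13). Of the other genes, 19 of the 23 of class I and 11 of the 14 of class II lie below 0 at 4 months.

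Interferon gamma targets were negative at 4 months in all 14 genes tested, with a median of -0.49 and 10 at an unadjusted p under 0.05, none past adjustment. Over all features, 11191 of 21513 were negative and 6.21% were negative at that p. Irf8, a transcription factor of myeloid and B cells, was at -0.60, -1.47 and -1.24 in pairs 1, 3 and 5 (limma adjusted p = 0.208). Gbp2, a guanylate-binding protein gene, was at -0.61, -1.04 and -0.82, and Irf1 at 0.15, -1.16 and -0.05. The list medians were -0.42, -0.69 and -0.25 in pairs 1, 3 and 5, so this list was below 0 in each pair. Without pair 3 its median was -0.37, with 11 of 14 negative. The type I interferon list (16 genes) had a 4-month median of -0.31, which was -0.06 without pair 3, with 14 of 16 and 12 of 16 negative. Of its first 3 genes, Irf7 was at -1.24, -1.89 and -0.67, while Isg15 and Ifit1 had 4-month means of -0.05 and 0.04.

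Markers of cells that carry class II molecules were set beside the same pairs. In bulk tissue, fewer cells of a type and less RNA per cell cannot be told apart. B cell genes had a 4-month median of -1.01, with 12 of 15 negative, and medians of 0.11, -2.68 and -0.07 in pairs 1, 3 and 5. The B cell receptor genes Cd79a and Cd79b were at -0.29, -4.18 and -0.02 and at 1.31, -5.18 and -0.07. Low B cell ratios were thus those of pair 3. T and NK cell genes behaved likewise, with medians of -0.03, -1.59 and -0.02, and so did the lymphoid stroma list, at 0.02, -0.64 and -0.08.

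In pairs 1 and 5 alone the B cell median was -0.02 and the T and NK cell median -0.08, while the class II median was -0.53 and H2-K1 was at -0.99. Single lymphocyte genes lay on both sides of 0 there, such as Cd79b at 1.31 and Cd3g at 1.22 in pair 1 and Cd22, chosen after its value was seen, at -0.65 in pair 5. In pair 3 the 7 genes were low together with the B and T cell lists. The part of lymphocytes in the ratios was not tested.

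Macrophage genes had a 4-month median of -0.35 over 18 genes, with 13 negative, 7 negative and 2 positive at an unadjusted p under 0.05 and none past adjustment. Their medians were -0.17, -0.56 and -0.22 in pairs 1, 3 and 5, and without pair 3 the median was -0.12, with 11 of 18 negative. Aif1, a calcium-binding protein of macrophages, was at -0.77, -2.84 and -1.90 (limma adjusted p = 0.208), and Adgre1, a surface receptor gene of macrophages, at -0.17, -1.20 and -1.07. Cd68, a lysosomal protein gene, was at -0.19, -0.57 and -0.50. All 3 were below 0 in each 4-month pair, but Cd14, Vsig4 and Cd163, named after their values were seen, were above 0 in each, with means of 0.62, 0.27 and 0.40. The dendritic cell list had a median of -0.18 (11 genes, 8 negative), which was -0.08 without pair 3, with Itgax at -0.61 and -0.25 in pairs 3 and 5 and no value in pair 1. The plasma cell list (6 genes) had a 4-month median of -0.08, or 0.13 without pair 3. Pan-leukocyte genes had medians of 0.03, -2.36 and -0.44, and without pair 3 their median was -0.14 with 8 of 13 negative. The part of macrophages in the ratios of the 7 genes was not tested.

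**Figure D3:**
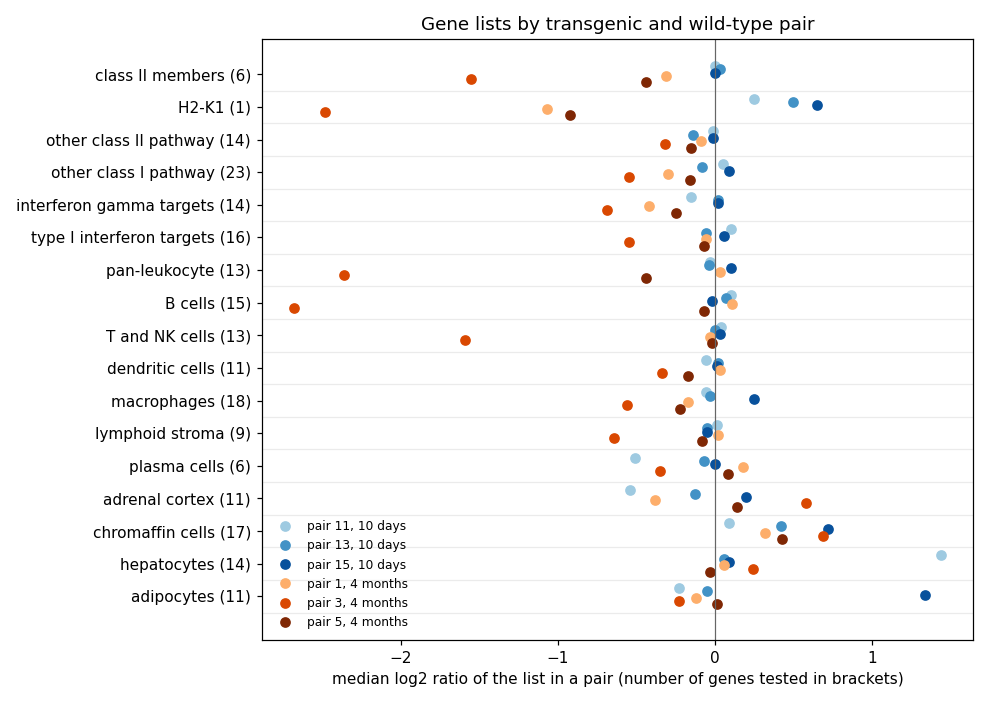
Median log2 ratio of each gene list (rows, with the number of genes tested in brackets) in each of the 6 pairs (points, 10-day pairs in blue and 4-month pairs in orange to brown). Pair 3 lies far to the left for B cell, T and NK cell and pan-leukocyte genes, at -2.68, -1.59 and -2.36, where pairs 1 and 5 lie between -0.44 and 0.11, and H2-K1 and the class II genes are below 0 in all 3 of the 4-month pairs.

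The adrenal lists did not share the low ratios of pair 3. The adrenal cortex list (11 genes) had medians of -0.38, 0.58 and 0.14 in pairs 1, 3 and 5, and the chromaffin cell list (17) of 0.32, 0.69 and 0.43. Without pair 3 their medians were -0.24, with 8 of 11 negative, and 0.38, with 4 of 17 negative. In pair 1 the cortex list had 7 of 11 negative, and its median of -0.38 was close to the class II median of -0.31. Among the 4-month pairs both adrenal lists were highest in pair 3, where the 7 antigen presentation genes were lowest. Chromaffin genes were positive in all 6 pairs by their median, though 7 of 17 were negative in pair 11 and 5 of 17 in pair 1. Of the first 3 chromaffin genes, Th had 10-day and 4-month means of 0.67 and 0.91 and Dbh of 0.22 and 0.25. Pnmt, which makes adrenaline, was highest of the 3, at 1.07 and 1.23.

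The genes whose 6 pair values lay closest to the median of the class II genes were sought among 17042 named genes, by the root-mean-square difference. The closest were Ifi203 (0.14), Map4k1 (0.15), Ccr7 (0.17) and Clec1b (0.17), followed by Cd3d, Tnf, Slamf8 and Clec4a2 (0.18 each) and Marcks and Slc28a2 (0.19 each). Ifi203, an interferon-inducible gene, was at -0.49, -1.48 and -0.44 in pairs 1, 3 and 5, where the class II median was -0.31, -1.55 and -0.44. For H2-K1 the closest of 17047 genes were at 0.42 for Napsa, 0.43 for Irf7, 0.44 for Gvin1, 0.45 for Crlf3 and 0.46 for Ctss. The distances of a single gene and of a median of 6 genes are not comparable.

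The genes of chromosome 17 between H2-K1 and H2-Eb1 show which neighbours shared the negative ratios. In the RefSeq order of GRCm38.p6 this stretch has 19 protein-coding genes, of which 18 were tested. Of these, 12 serve antigen presentation: 6 of the genes described and H2-Oa, Psmb9, Tap1, Psmb8, Tap2 and H2-Ob. All 6 of the latter were negative at 4 months, with Tap1, a subunit of the peptide transporter, at -0.98, -0.91 and -0.10 and Tap2 at -0.50, -0.52 and 0.09. The 6 with other functions (Ring1, H2-Ke6, Slc39a7, Rxrb, Col11a2 and Brd2) had a median of 0.02 and a range from -0.23 to 0.25. Of the 6, 1 was negative (Rxrb) and 0 had an unadjusted p under 0.05. Neighbours of other function, named after their values were seen, therefore lay near 0 on average, with medians of -0.34, 0.24 and 0.20 in pairs 1, 3 and 5. In pair 1 their median was as low as the class II median of -0.31, so the averages part the 2 kinds through pairs 3 and 5.

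**Figure D4:**
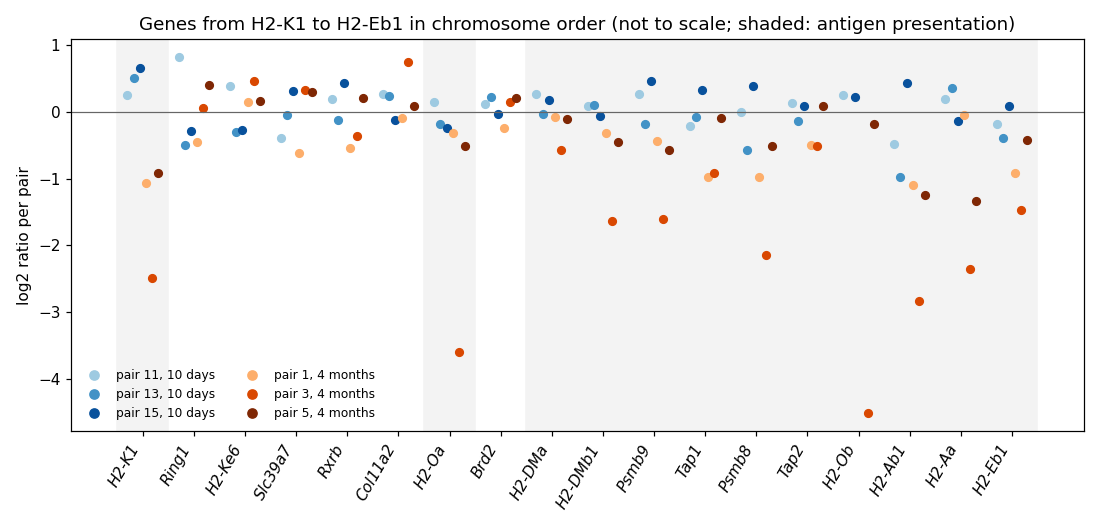
Log2 ratio per pair (vertical axis) of the 18 tested genes from H2-K1 to H2-Eb1 in their order on chromosome 17 (horizontal axis, not to scale), with 10-day pairs in blue and 4-month pairs in orange to brown. Shading marks antigen presentation genes, whose 4-month points fall well below 0 for most of them, most in pair 3 (H2-Ob at -4.51, H2-Oa at -3.59), while the unshaded genes have 4-month means from -0.23 to 0.25.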

How the data were processed

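Adrenal RNA of 6 pairs of mice, each transgenic against wild type, was compared on 12 arrays with 2 colours. As deposited, each of the 25344 spots of an array has a log2 ratio of its channels. That the base is 2 was checked on the 6 full-precision arrays, where 100% of values gave a ratio of whole numbers up to 65535 (relative tolerance 1e-13). The sources used here do not give the scanner, the background subtraction, any normalization by the authors or the direction of the ratio. The values were not centred, with array medians from -0.68 to -0.22 (transgenic sample in Cy3) and from 0.74 to 1.50 (in Cy5), and between 4.3% and 6.59% of spots were empty.

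Array by array, a loess fit (span 0.3) of the ratio on probe signal was subtracted. The signal was 1 value per probe, known for 24641 probes. It was the upper quartile, over the 6 full-precision arrays (transgenic sample in Cy3), of the signal recovered from the whole numbers. The same values served all 12 arrays, so those with it in Cy5 were not corrected on their own spot signal. A ratio gives the whole numbers without any common factor, so the recovered signal can be too low. The columns were not turned. After centring on the mean of each dye orientation, correlations within a pair were 0.23 to 0.65, and those of 30 combinations of different pairs -0.27 to 0.12. As deposited they were -0.50 to -0.10 and -0.62 to -0.24. Of the probes, 21082 had 1 gene, 30 several and 4232 none in the platform's table. Probes of a gene were averaged, then the 2 arrays of a pair, where both were measured. Features with a value in at least 2 of 3 pairs of each group were tested in limma 3.58.1 (R 4.3.3) on 1 value per pair, with the age group as the term and 4 residual and 3.85 prior degrees of freedom. Tests were two-sided, with Benjamini-Hochberg adjustment over 21513 features and a threshold of 0.05. No filter on dim probes was used. By the recovered signal none of the 8 probes was near the limit of the scanner. This cannot exclude it, because that signal can be too low and leaves out the arrays with the transgenic sample in Cy5. The number of pairs, 3 in each group, limits the precision, since the 2 arrays of a pair are technical replicates.

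Alternatives were another span, median centring, no correction, each orientation alone, a fit of 12 arrays with the pair as a random block, an ordinary model, a sex term, the brightest probe, a filter on dim probes, pairs with 1 array, and each pair left out. The pathway, marker and interferon lists and the members were chosen with earlier results of these data known. Beside the 7 genes, the text names the 4 of each pathway list with the largest 4-month ratio in size, up to 3 first measured markers of a list, the closest genes by root-mean-square difference, and genes said to be chosen after their values were seen. RefSeq tables (GRCm38.p6) gave the gene order and the promoters.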

Additional observations from a re-analysis of the deposited data

Results flagged for a closer look

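The 4-month minus 10-day difference of H2-K1 was singled out because all 3 pairs were positive at 10 days, at 0.25, 0.50 and 0.65, and all 3 were negative at 4 months, at -1.07, -2.48 and -0.92. The difference was -1.96, with limma adjusted p = 0.933 over all features (0.00104 before adjustment). It was -1.46 without pair 3, -0.65 with the Cy3 arrays alone and -3.26 with the Cy5 arrays alone, and on the Cy3 arrays the 10-day mean was negative too, at -0.86. The switch of sign was not particular to H2-K1, since H2-T23 and H2-T24 had it too, with differences of -0.79 and -0.31. The share of all features with such a switch was not counted.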

How the results depend on the processing

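None of the 7 genes passed with the dye trend corrected and both orientations averaged, so no call could be lost. All 7 genes were negative at 4 months under every alternative but the values as deposited with no correction, where H2-DMa was at 0.13 (0.23 over all 6 pairs) and H2-Aa, H2-Ab1, H2-Eb1 and H2-K1 passed (limma adjusted p = 0.00312 to 0.043). That setting also gave H2-K1 an adjusted p of 0.0308 for a difference of -1.72. With the Cy5 arrays alone, H2-Ab1, H2-Eb1, H2-DMb1 and H2-K1 passed at 4 months (adjusted p = 0.028 to 0.0425), H2-K1 passed at 10 days with a positive ratio (1.80, adjusted p = 0.0362), and over all 6 pairs H2-DMa was at 0.14 and H2-K1 at 0.17. Over all 6 pairs H2-Ab1 passed as deposited (0.00413), in Cy3 (0.0319), in Cy5 (0.0482) and with the random block (0.00999), H2-Eb1 as deposited (0.039), in Cy5 (0.013) and with the block (0.0226), and H2-K1 in Cy3 (0.0208). With the Cy3 arrays alone, 10-day values turned for H2-Aa (-0.33), H2-Eb1 (0.04), H2-DMa (-0.24), H2-DMb1 (-0.01), Cd74 (-0.09) and H2-K1 (-0.86). Median centring turned the 10-day values of H2-DMb1 (-0.06) and Cd74 (-0.09). With 1 pair left out, Cd74 at 10 days ran from -0.11 to 0.13, H2-DMa over all 6 pairs from -0.11 to 0.02 and Ifi30 at 4 months from -1.19 to 0.18. The 10-day class II median of 0.05 was -0.07 after median centring, 0.12 as deposited, -0.16 in Cy3, 0.14 in Cy5, 0.09 with the brightest probe and -0.01 to 0.11 with 1 pair left out. Features called at 10 days (0) were 18 as deposited, 31 in Cy3, 222 in Cy5, 69 with the pair as a random block and 0 to 1 with 1 pair left out. At 4 months (0) they were 2548, 288, 915 and 287 under those settings and 0 to 5 with 1 pair left out, and for the difference (0) 16 as deposited. Over all 6 pairs (12) they were 5964, 1411, 3439 and 769 under those 4 settings, 0 after median centring, 1 in the ordinary model, 0 with a sex term and 0 to 15 with 1 pair left out. With the orientations averaged, limma had 0 calls at 4 months while 1336 features were negative and 1310 positive at an unadjusted p under 0.05. The causes were not tested. No paired analysis was possible because the groups share no replicate numbers.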
